A study of Bos taurus with 16 samples.

Results

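Round and sirloin muscle of the same newborn Hanwoo calves were compared by RNA sequencing, with all 16 libraries of the series used and each round library paired with the sirloin library of the same calf, which gave 8 pairs. Control calves (n = 4) came from cows fed 100% of their nutritional requirement in mid to late pregnancy, and treated calves (n = 4) from cows fed 150% over that time. The calves were male, were sampled right after birth before they took colostrum, and received no treatment of their own. Hanwoo is a Korean beef breed, round is the cut of the upper hind limb and sirloin a cut of the back, and the labels do not say which anatomical muscle within either cut was taken. As muscles of these cuts the study's text names the semimembranosus and biceps femoris for round and, for sirloin, the gluteus medius and psoas major, which belong to the hip and pelvis. The pairing rests on the number that the labels give to both libraries of a calf.

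Skeletal muscles of the trunk and limbs arise from somites, those of the limb from precursors that migrate out of the ventrolateral part and the deep back muscles from the dorsomedial part, at differing levels along the body. Positions along the body are recorded by HOX genes, whose order along each cluster follows the order of their expression from head to tail, and by further transcription factors that mark limbs, such as TBX4 in the hind limb, or the dorsal side of the trunk, such as the ZIC zinc-finger family. Muscles also differ in the share of slow oxidative and fast glycolytic fibres and in the fibroblasts, vessels, nerves and fat that surround the fibres. In pieces of whole muscle, fewer cells of a type and less RNA per cell cannot be told apart.

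The total count per library was between 44473011 and 72446933. Of 11 detected genes that define skeletal muscle, none differed in edgeR's test, while 1 was higher in sirloin at an unadjusted p under 0.05 and 1 by DESeq2. ACTA1 (skeletal actin) had medians of 26321 CPM (counts scaled to a common library total with TMM factors) in round and 23564 CPM in sirloin. Several libraries stood apart. The sirloin library of treated replicate 4 held adipocyte transcripts: ADIPOQ (adiponectin) was at 977 CPM there and at most 1.62 CPM in the other 15 libraries, PLIN1 at 288 against at most 3.57 CPM, and the 22 adipocyte genes summed to 5646 CPM against 1236 to 1702 CPM in the other sirloin libraries. The round library of control replicate 2 was high in collagen genes, with a sum over 43 chains of 9519 CPM against 1992 to 2974 CPM in the other round libraries. The round library of treated replicate 2 was high in slow fibre genes, at 99617 CPM against 23459 to 51125 CPM. Because of the fat transcripts in that sirloin library, results are given with and without treated replicate 4.

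The muscles were separable within calves. The mean of the 8 within-calf differences over all genes had a squared length that was 0.208 of the mean squared length of the single differences, which was larger than under every other swap of the muscle labels within calves apart from its mirror image (exact permutation test over all swaps, one-sided p = 0.00781, the smallest this design allows). Among 22877 genes tested with the calf as a block in edgeR's quasi-likelihood test, 122 (0.533%) passed an adjusted p-value of 0.05, 61 (0.267%) higher in round and 61 (0.267%) higher in sirloin. Of these, 76 differed by at least 1 on the log2 scale and 104 lay on the same side in all 8 calves, as did 2.50% of all genes tested. Without the block 14 genes passed. The first principal component (16.8% of the variance) spread the calves, while the second (12.3%) and the fourth (8.90%) each placed round above sirloin in all 8. Without treated replicate 4, 368 genes (1.63%) passed, 234 (1.04%) higher in round and 134 (0.594%) in sirloin, and they included 115 of the 122. DESeq2 called 822 (3.59%), of which 421 (1.84%) were higher in round and 401 (1.75%) in sirloin. At an unadjusted p under 0.05 in edgeR's test, 5.45% of all genes were higher in round and 5.78% in sirloin. These shares are the background for the counts below. On log2(TPM + 1) values, where TPM also allows for transcript length, limma called 11 genes higher in round and 46 in sirloin.

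Genes of the hind limb address were found in round. HOXC11, a homeobox gene near the tail end of the HOXC cluster, ranged in round from 1.40 to 2.55 CPM with a median of 1.91 CPM. No sirloin library held a single HOXC11 count, which allows at most 0.00653 CPM there (a floor of 3 counts in the pooled group), so that round was at least 302-fold higher (adjusted p = 0.00417, edgeR). TBX4, the T-box factor of the hind limb, had counts in all 8 round libraries, from 0.231 to 2.40 CPM with a median of 0.799 CPM, and none in sirloin, at least 170-fold higher (adjusted p = 0.00930, edgeR). The groups did not overlap for either gene, and both stayed past the threshold when any calf was left out. HOXA11 also had counts in round alone, in 7 of 8 calves and at no more than 0.505 CPM, at least 36.7-fold higher, but did not pass the adjusted threshold (adjusted p = 0.103 by edgeR and 0.00209 by DESeq2). A long non-coding RNA chosen after its values were seen, LOC101907241, which lies between HOXC11 and HOXC12 in the gene order of assembly ARS-UCD2.0, followed the same pattern. It was at 3.36 to 9.05 CPM in round and absent from all sirloin libraries, at least 736-fold higher (adjusted p = 0.00143, edgeR).

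**Figure D1:**
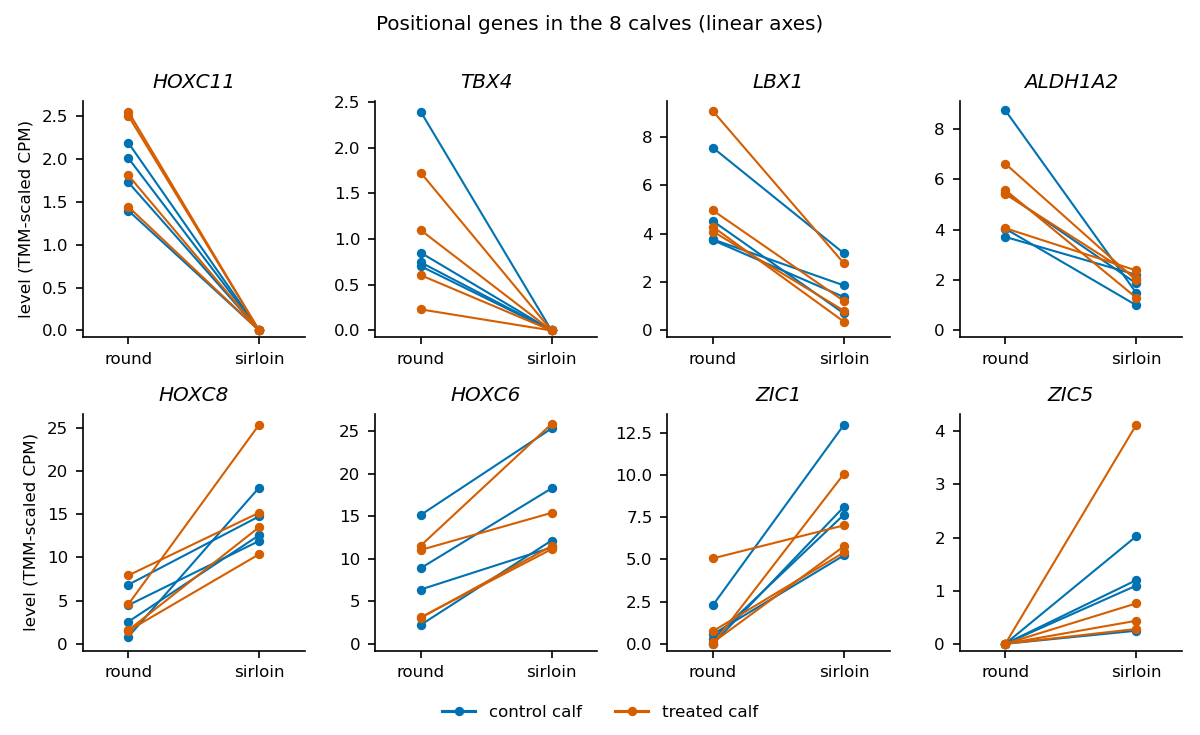
Level (TMM-scaled CPM, linear axes) of 8 positional genes in round and sirloin, with a line for each calf coloured by maternal diet. HOXC11 and TBX4 are at 0 in all 8 sirloin libraries, LBX1 and ALDH1A2 are higher in round, and HOXC8, HOXC6, ZIC1 and ZIC5 are higher in sirloin in all 8 calves.

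Not every gene of the limb followed this pattern. LBX1, a homeobox gene needed by muscle precursors that migrate into the limb, was at 3.73 to 9.06 CPM in round (median 4.40) and 0.366 to 3.19 CPM in sirloin (median 1.30), with no overlap and a log2 fold change, round minus sirloin, of 1.95 (standard error, SE, 0.255, adjusted p = 0.00544, edgeR). SHOX2, a homeobox gene of limb growth, was higher in round in 7 of 8 calves, with medians of 1.78 and 0.835 CPM and a log2 fold change of 1.19 (SE 0.227, adjusted p = 0.0401, edgeR), and 1 of the 8 fits without a calf kept that call (adjusted p from 0.00747 to 0.114). PITX1, a homeobox gene of hind limb identity, differed between calves more than between muscles: it ran from 1.70 to 55.8 CPM in round and from 2.58 to 30.8 CPM in sirloin, and the log2 fold change was 0.34 (SE 0.497, adjusted p = 0.852, edgeR). TBX5, the fore limb counterpart of TBX4, had counts in 4 round libraries and no sirloin library, at no more than 0.220 CPM (adjusted p = 0.425, edgeR). Among signalling genes, ALDH1A2, which makes retinoic acid, had medians of 5.44 CPM in round and 1.93 CPM in sirloin without overlap (log2 fold change 1.60, SE 0.209, adjusted p = 0.00544, edgeR). The Wnt inhibitor DKK1 had medians of 2.49 and 1.08 CPM and was higher in round in all 8 calves (log2 fold change 1.00, SE 0.171, adjusted p = 0.0222, edgeR), a call that 5 of the 8 fits without a calf kept.

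Genes of the ZIC family were higher in sirloin. ZIC5 had no count in any round library, which allows up to 0.00691 CPM there, and 0.245 to 4.12 CPM in sirloin, at least 201-fold higher (adjusted p = 0.00793, edgeR). ZIC2, its neighbour in the gene order, had no count in round either and up to 71 counts in sirloin libraries, in 7 of 8, at least 59.2-fold higher. In edgeR's test ZIC2 did not pass with all calves (adjusted p = 0.0586) and passed without treated replicate 4 (adjusted p = 0.0273). ZIC1 had medians of 0.430 CPM in round and 7.32 CPM in sirloin. Its highest round value, 5.05 CPM in treated replicate 4, came close to its lowest sirloin value of 5.23 CPM, while 5 round libraries were under 0.6 CPM. The log2 fold change was -3.90 (SE 0.762, adjusted p = 0.0432, edgeR), and it passed in 1 of the 8 fits without a calf, the fit without treated replicate 4 (adjusted p = 0.00925, against up to 0.142). ZIC4, with medians of 0.218 and 3.03 CPM and no overlap, had a log2 fold change of -3.84 (SE 0.576, adjusted p = 0.0120, edgeR), and it overlaps ZIC1 in the annotation, so reads of the pair may have been shared by the counting. ZIC4 and ZIC5 passed without each calf in turn.

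HOX genes are numbered by paralogue group, and the number rises toward the tail. Of 39 HOX genes, 34 had counts, and edgeR called 1 higher in round and 3 higher in sirloin. DESeq2 called 3 higher in round and 7 higher in sirloin. At an unadjusted p under 0.05 in edgeR's test, 5 were higher in round and 9 in sirloin. The median log2 fold change over the 34 genes was -0.28, against -0.0041 over all genes tested. Of 26 detected genes with paralogue number 9 or lower, 22 had a fold change below 0. No such count is given for the 8 with number 10 or higher, since HOXC11, HOXA11 and HOXD13 were detected in round alone and could only lie above 0. HOXA13, HOXC13 and HOXD10 lay within 1 SE of 0, and HOXA10 and HOXC10 are described below. The genes called by edgeR lie in the HOXC cluster. HOXC8 ran from 0.818 to 7.92 CPM in round (median 3.51) and from 10.4 to 25.4 CPM in sirloin (median 14.1) with no overlap, a log2 fold change of -2.26 (SE 0.334, adjusted p = 0.0106, edgeR) that passed in 7 of the 8 fits without a calf. HOXC6 followed with medians of 7.63 and 13.8 CPM (log2 fold change -1.29, SE 0.205, adjusted p = 0.0171, edgeR) and HOXC9 with 10.3 and 16.9 CPM (log2 fold change -0.83, SE 0.157, adjusted p = 0.0386, edgeR). Both were higher in sirloin in all 8 calves while the ranges overlapped. HOXC6 passed in 6 of the 8 fits without a calf and HOXC9 in 2 (adjusted p up to 0.119).

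**Figure D2:**
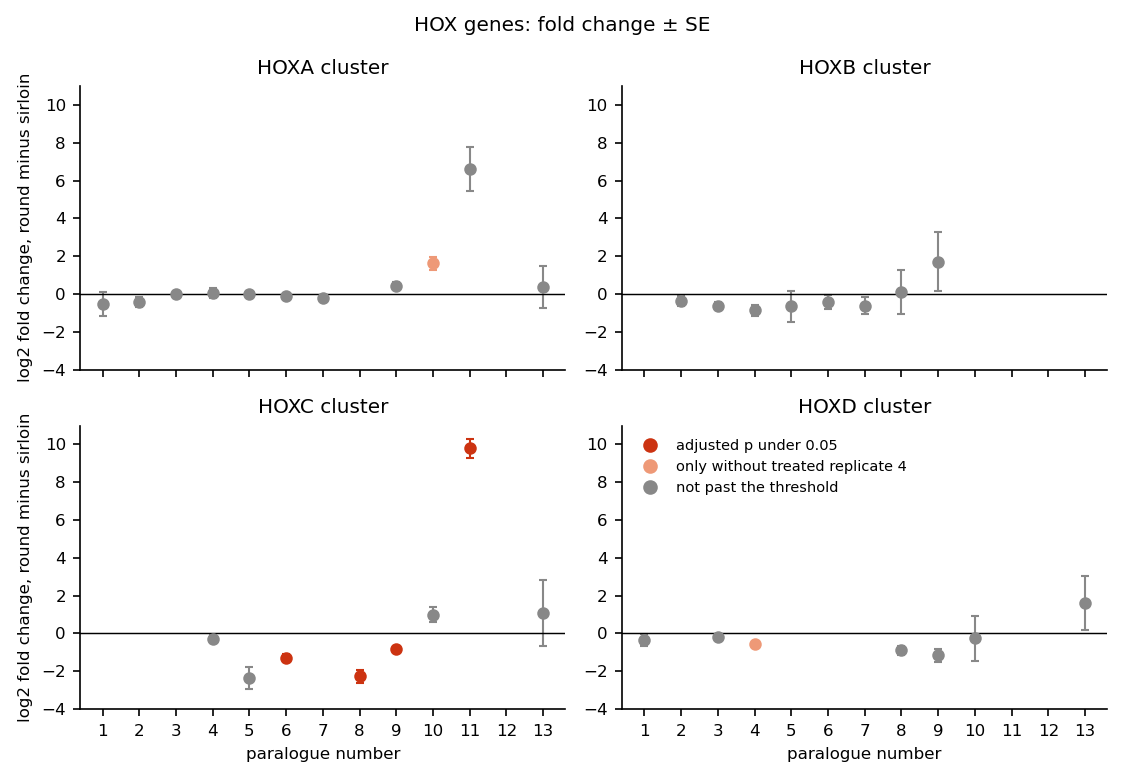
Fitted log2 fold change (round minus sirloin, y axis) with its standard error for the 34 detected HOX genes by paralogue number (x axis), in a panel for each cluster. HOXC6, HOXC8 and HOXC9 lie below 0 and HOXC11 at the top of its panel; the fitted values of HOXC11, HOXA11 and HOXD13 rest on 0 counts in sirloin and are not bounds.

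Within the HOXC cluster the genes called by edgeR turned from sirloin-high at HOXC9 to round-high at HOXC11. HOXC10, which lies between them, had medians of 19.9 CPM in round and 11.4 CPM in sirloin, but its highest value of all, 36.2 CPM, was in a sirloin library, and it was higher in round in 5 of 8 calves (log2 fold change 0.99, SE 0.402, adjusted p = 0.360, edgeR). HOXA10 was higher in round in all 8 calves, with medians of 5.91 and 1.55 CPM. In edgeR's test it did not pass with all calves (log2 fold change 1.61, adjusted p = 0.0680) and passed without treated replicate 4 (1.32, adjusted p = 0.0391). HOXA5, HOXA3 and HOXA4 had fold changes of -0.02, -0.01 and 0.04 on the log2 scale. In the HOXD cluster HOXD8 and HOXD9 were lower in round in all 8 calves by 0.88 and 1.16 on the log2 scale. They did not pass in edgeR's test (adjusted p = 0.150 and 0.153). HOXD4 did not pass in that test with all calves (adjusted p = 0.0652) and passed without treated replicate 4 (adjusted p = 0.0441). Per transcript length, HOXD8 was among the more abundant of these genes, with means of 33.1 TPM in round and 60.0 TPM in sirloin, while HOXC11 reached 2.65 TPM in round.

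Of 73 further transcription factors of limb and trunk, 66 had counts: 3 (TBX4, LBX1 and SHOX2) were higher in round, 4 (ZIC1, ZIC4 and ZIC5 among them) higher in sirloin and 59 did not pass, with a median log2 fold change of 0.34. Members detected in round alone, such as TBX5 and ALX1, could only lie above 0, and ZIC2 and IRX1, detected in sirloin alone, only below. DESeq2 called 6 higher in round and 6 in sirloin, against 10 and 9 at an unadjusted p under 0.05 in edgeR's test. Factors that did not pass included MEIS1, a HOX cofactor (log2 fold change -0.56, lower in round in all 8 calves, adjusted p = 0.0762, edgeR), EN1 (-0.36, adjusted p = 0.787), TBX15 (0.26, adjusted p = 0.589) and PRRX1 (0.10, adjusted p = 0.861). Of 29 detected positional signalling genes, 2 (ALDH1A2 and DKK1) were higher in round and 27 did not pass in edgeR's test, with a median of 0.02. DESeq2 called 2 higher in round and 2 in sirloin, against 4 and 4 at an unadjusted p under 0.05 in edgeR's test. Outside the lists, the forkhead gene FOXD1, chosen after its values were seen, was no higher than 0.153 CPM in round and no lower than 0.374 CPM in sirloin (log2 fold change -3.81, SE 0.388, adjusted p = 0.00143, edgeR).

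Of the genes higher in sirloin, IGFN1, a protein of the muscle Z-disc, was among the abundant ones. It was at 2.70 to 232 CPM in round (median 121) and 709 to 4143 CPM in sirloin (median 2174), with no overlap, a fitted 19.8-fold difference (log2 fold change -4.31, SE 0.595, adjusted p = 0.00793, edgeR). The lowest round value was that of treated replicate 2, the library high in slow fibre genes, and the next lowest was 27.7 CPM in treated replicate 3. The call held without each calf in turn (log2 fold change from -4.53 to -3.89). Other genes that marked sirloin were WDR86, a WD-repeat gene (medians 1.99 and 12.5 CPM, log2 fold change -2.65, SE 0.212, adjusted p = 0.000189, edgeR), SHISA3, an antagonist of Wnt and FGF receptors (0.931 and 9.65 CPM, -3.18, SE 0.355, adjusted p = 0.00286), and CD101, a membrane protein of the immunoglobulin family (0.329 and 3.05 CPM, -3.55, SE 0.365, adjusted p = 0.00143). WDR86 overlaps NUB1 in the annotation and may share its reads. The axon guidance ligand SLIT2 was lower in round in all 8 calves (medians 0.533 and 1.54 CPM, log2 fold change -1.96, SE 0.336, adjusted p = 0.0222, edgeR), and 5 of the 8 fits without a calf kept it.

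MLXIPL, the glucose-sensing transcription factor also called ChREBP, had medians of 11.8 CPM in round and 29.9 CPM in sirloin and was higher in sirloin in all 8 calves (log2 fold change -1.49, SE 0.173, adjusted p = 0.00286, edgeR). FAH, the last enzyme of tyrosine breakdown, had medians of 4.56 and 11.3 CPM (log2 fold change -1.48, SE 0.167, adjusted p = 0.00286, edgeR). PPP1R3B, which brings protein phosphatase to glycogen, had medians of 66.0 and 145 CPM (log2 fold change -0.91, SE 0.126, adjusted p = 0.00793, edgeR). These 3 genes passed without each calf in turn, and their ranges overlapped between muscles, as the calves differed in level. Chosen after their values were seen, PADI2, which converts arginine in proteins to citrulline, had medians of 368 and 1179 CPM (log2 fold change -1.51, adjusted p = 0.00930, edgeR) and THRB, a thyroid hormone receptor, 16.5 and 30.3 CPM (-0.75, adjusted p = 0.0426). PADI2 passed without each calf in turn and THRB in 2 of the 8 such fits (adjusted p up to 0.141).

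**Figure D3:**
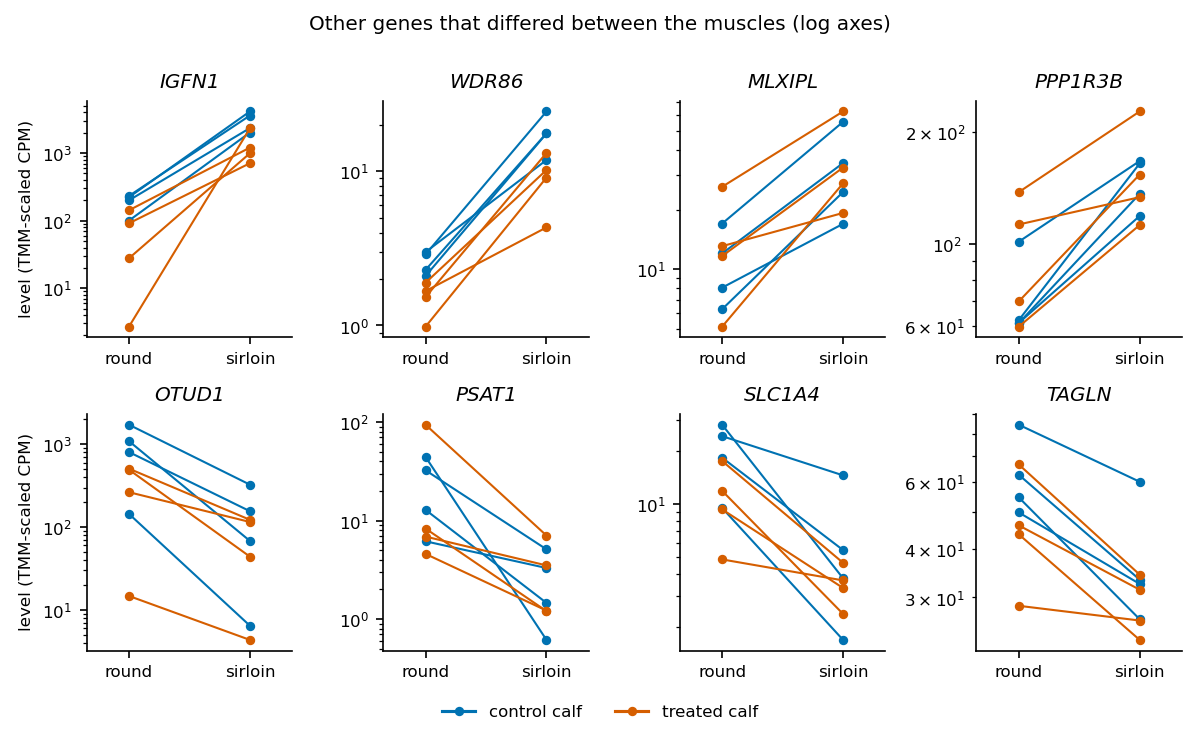
Level (TMM-scaled CPM, log axes) of 8 further genes in round and sirloin, with a line for each calf coloured by maternal diet. IGFN1, WDR86, MLXIPL and PPP1R3B rise and OTUD1, PSAT1, SLC1A4 and TAGLN fall from round to sirloin in all 8 calves, although the calves differ widely in level.

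Among the genes higher in round, several make or carry amino acids and one-carbon units. PSAT1, of serine synthesis, was at 4.59 to 93.9 CPM in round (median 10.6) and 0.616 to 7.05 CPM in sirloin (median 2.38), a log2 fold change of 2.70 (SE 0.475, adjusted p = 0.0260, edgeR). MTHFD2 and ALDH1L2, both of the mitochondrial folate pathway, had log2 fold changes of 2.29 (SE 0.397, adjusted p = 0.0233) and 1.80 (SE 0.291, adjusted p = 0.0182). PCK2, the mitochondrial phosphoenolpyruvate carboxykinase, had 2.50 (SE 0.476, adjusted p = 0.0405). The amino acid transporters SLC7A5, SLC1A4 and SLC6A9 had 1.82, 1.75 and 1.72 (adjusted p = 0.0333, 0.0101 and 0.0222, edgeR). All of these were higher in round in all 8 calves, which the rule for naming them required. SLC1A4 passed without each calf in turn, ALDH1L2 in 7 of 8 such fits, and the others in 3 to 5. MTHFD2 and SLC6A9 overlap other genes in the annotation, as do ALDH1A2 and SLIT2 above. These genes were not a list of their own, and the group was seen only in the results.

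OTUD1, a deubiquitinase, was higher in round in all 8 calves but ranged within each muscle from 14.7 to 1715 CPM in round and from 4.35 to 325 CPM in sirloin (log2 fold change 2.70, SE 0.343, adjusted p = 0.00477, edgeR). Treated replicate 1 was the lowest calf in both muscles. Of 25 immediate early genes, which respond to stimuli within minutes, 2 were higher in round, 0 higher in sirloin and 23 did not pass in edgeR's test, with a median log2 fold change of 0.35. At an unadjusted p under 0.05 in that test, 9 were higher in round and 1 in sirloin. DESeq2 called 5 higher in round and 1 in sirloin. The AP-1 factor FOSL1 had medians of 4.14 and 0.123 CPM (log2 fold change 4.35, SE 0.549, adjusted p = 0.00477, edgeR), and its round values were 7.27 CPM or more in the 4 control calves and 1.00 CPM or less in the 4 treated calves. CCN2, a matricellular protein, had medians of 27.1 and 12.6 CPM (log2 fold change 1.37, SE 0.238, adjusted p = 0.0247, edgeR), and 5 of the 8 fits without a calf kept it. FOS and EGR1 did not differ detectably (log2 fold changes 0.26 and 0.63, adjusted p = 0.878 and 0.812, edgeR). Chosen after their values were seen, the small heat shock protein CRYAB had medians of 4138 and 1559 CPM (log2 fold change 1.34, adjusted p = 0.0398, edgeR), NMRK2, which makes NAD from nicotinamide riboside, 693 and 243 CPM (1.53, adjusted p = 0.0222), and the actin regulator ENAH 388 and 70.7 CPM (1.67, adjusted p = 0.0423). Of the 8 fits without a calf, 3 kept CRYAB, 5 kept NMRK2 and 2 kept ENAH (adjusted p up to 0.114, 0.0620 and 0.126). In round, ENAH was at 612 CPM or more in the 4 control calves and 164 CPM or less in the 4 treated calves.

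Contractile genes of the fibre types gave 1 call. Of 18 slow fibre genes none passed in edgeR's test (1 at an unadjusted p under 0.05 in each direction, and 1 in each direction by DESeq2), with a median log2 fold change of -0.03. MYH7, the slow myosin heavy chain, ran from 5371 to 38054 CPM in round (median 8936) and from 4496 to 12858 CPM in sirloin (median 10176), with 4 of 8 calves higher in round (log2 fold change 0.10, SE 0.308, adjusted p = 0.940, edgeR). The top round value was that of treated replicate 2. Of 17 detected fast fibre genes 1 was higher in round: MYOZ3, a Z-disc protein of fast fibres, had medians of 31.1 and 24.2 CPM and was higher in round in all 8 calves (log2 fold change 0.66, SE 0.112, adjusted p = 0.0222, edgeR), a call that 4 of the 8 fits without a calf kept. At an unadjusted p under 0.05, 1 fast fibre gene was higher in round and 2 in sirloin, and DESeq2 called 1 in each direction. MYH2 and MYH1, the IIa and IIx myosins, had log2 fold changes of -0.28 (SE 0.159, adjusted p = 0.594) and 0.13 (SE 0.625, adjusted p = 0.970). The wide error of MYH1 came with round values of 711 CPM in treated replicate 2 and 1329 CPM in treated replicate 3 against 9907 CPM or more in the other 6 calves. Per transcript length MYH2 had the highest mean of these myosins in both muscles, 5955 TPM in round and 7319 TPM in sirloin, followed by MYH7 with 3520 and 2723 TPM and MYH1 with 3299 and 2632 TPM. Of 6 developmental contractile isoforms none passed in edgeR's test (2 higher in round at an unadjusted p under 0.05, 2 calls by DESeq2), with a median of 0.06. The embryonic MYH3 and neonatal MYH8 were still present, at means of 42.2 and 49.1 TPM and of 113 and 139 TPM, and did not differ detectably (log2 fold changes -0.22 and -0.27, adjusted p = 0.822 and 0.596, edgeR).

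Of 31 sarcomere and Z-disc genes, IGFN1 was the only one called in edgeR's test, and 22 had fold changes above 0, with a median of 0.22 on the log2 scale. At an unadjusted p under 0.05 in that test, 9 were higher in round and 3 in sirloin. DESeq2 called 5 higher in round and 3 higher in sirloin. ANKRD1, a stretch-responsive titin-binding protein, and KY, a Z-disc protease-like protein, were 2.24 and 1.79 higher in round on the log2 scale. In edgeR's test they did not pass with all calves (adjusted p = 0.0897 and 0.0683) and passed without treated replicate 4 (adjusted p = 0.0415 and 0.0404). In that fit CMYA5 passed as lower in round (log2 fold change -0.65, adjusted p = 0.0326). The 20 calcium handling and 17 neuromuscular junction genes gave no call in edgeR's test, with 7 and 2 at an unadjusted p under 0.05, 4 and 1 calls by DESeq2 and medians of 0.00 and -0.03. Of 22 detected myogenic and satellite cell genes, LBX1 was called, 21 did not pass in edgeR's test and 17 had fold changes above 0, with a median of 0.31. At an unadjusted p under 0.05 in that test, 7 were higher in round and 0 in sirloin, and DESeq2 called 3, all higher in round. MYOD1, MYF5 and MYOG, which commit cells to muscle, had log2 fold changes of 0.20, 0.14 and 0.48 (adjusted p = 0.824, 0.877 and 0.249, edgeR).

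**Figure D4:**
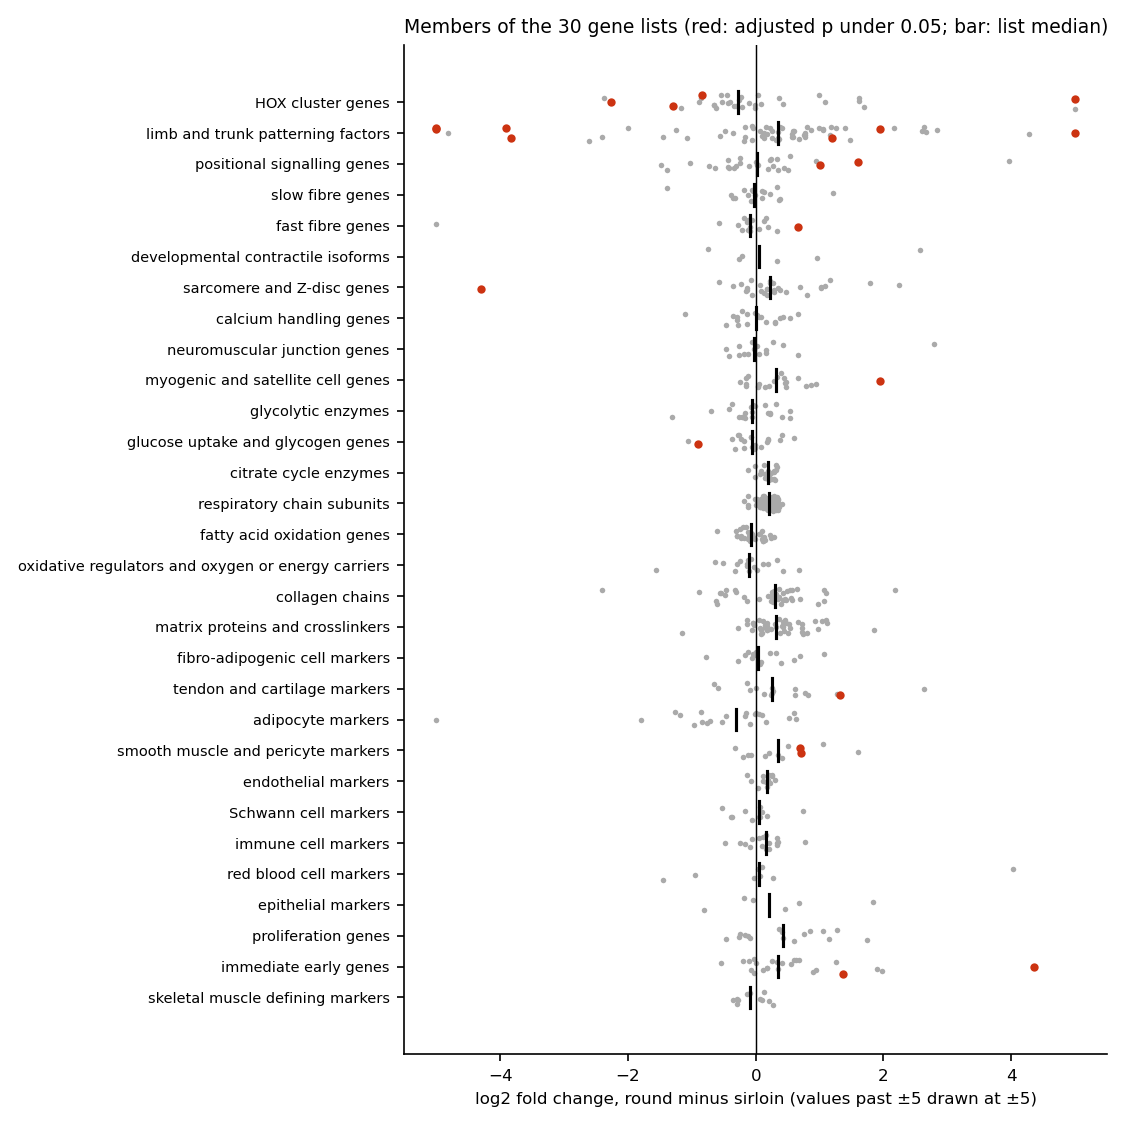
Log2 fold change (round minus sirloin, x axis) of every detected member of 30 gene lists (rows), with a bar at each list's median and genes past an adjusted p of 0.05 in red; values beyond 5 in size are drawn at 5. Calls cluster in the positional lists, while slow and fast fibre, glycolytic and fatty acid oxidation genes centre near 0 and respiratory chain subunits sit together just above 0.

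Genes of energy metabolism gave 1 call, while those of the respiratory chain leaned toward round. Of 76 respiratory chain subunits none passed in edgeR's or DESeq2's test, while 70 had a fold change above 0, with a median of 0.20 on the log2 scale, against 49.5% above 0 and a median of -0.0041 over all genes. At an unadjusted p under 0.05, 18 of the 76 were higher in round and 0 lower, against 5.45% of all genes higher in round. The summed level of the subunits was higher in round in 7 of 8 calves. Control replicate 2 was the exception, and the lowest sum of all, 8204 CPM, was in the sirloin library of treated replicate 2. The 23 citrate cycle enzymes behaved alike, with 20 above 0, a median of 0.19 and no call by either tool (4 higher in round at an unadjusted p under 0.05). The 22 glycolytic enzymes had a median of -0.06 and no call in edgeR's test (5 at an unadjusted p under 0.05, 3 calls by DESeq2), and hexokinase HK1 passed as higher in round without treated replicate 4 (log2 fold change 0.67, adjusted p = 0.0269, edgeR). Of the 30 fatty acid oxidation genes none passed by edgeR or DESeq2 (1 at an unadjusted p under 0.05). Of 22 glucose uptake and glycogen genes PPP1R3B was the only one called in edgeR's test (2 higher in round and 3 higher in sirloin at an unadjusted p under 0.05, 1 call by DESeq2). LDHA, LDHB and CS had log2 fold changes of 0.31, -0.42 and 0.33 (adjusted p = 0.454, 0.606 and 0.418, edgeR). The 18 oxidative regulators and oxygen or energy carriers gave no call in edgeR's test either (3 at an unadjusted p under 0.05, 1 call by DESeq2), with a median of -0.11. Among them, PPARGC1A, a coactivator of mitochondrial genes, varied between calves from 23.9 to 540 CPM in round and from 29.4 to 734 CPM in sirloin, with a difference between muscles of -0.25 on the log2 scale (adjusted p = 0.854, edgeR).

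Connective tissue genes leaned toward round, and their calls changed with treated replicate 4 left out. List counts here and below were made with all calves and without that calf alone. None leave out control replicate 2, whose round library was high in collagen genes. None of 43 collagen chains passed in edgeR's test with all calves (10 higher in round and 3 higher in sirloin at an unadjusted p under 0.05), and without treated replicate 4 there were 5: COL1A1, COL1A2, COL3A1, COL5A3 and COL6A6, all higher in round. DESeq2 called 5 collagen chains with all calves. COL1A1, the main chain of collagen I, had medians of 220 CPM in round and 112 CPM in sirloin and was higher in round in all 8 calves (log2 fold change 1.07, SE 0.256, adjusted p = 0.0947 with all calves, and 1.21 and 0.0375 without treated replicate 4, edgeR). Its highest values were 2278 CPM in the round and 427 CPM in the sirloin library of control replicate 2, and the sirloin library of treated replicate 4 followed among sirloin libraries with 367 CPM. Of 47 matrix proteins and crosslinkers none passed with all calves (14 higher in round and 1 higher in sirloin at an unadjusted p under 0.05, 9 calls by DESeq2), 39 had fold changes above 0 and the median was 0.31. Without treated replicate 4, 8 passed, all higher in round, among them POSTN, BGN and LUM with log2 fold changes of 2.31, 1.33 and 1.32 (adjusted p = 0.0210, 0.0378 and 0.0411, edgeR). SERPINH1, the collagen chaperone, was chosen after its values were seen and passed with all calves and without treated replicate 4 (log2 fold change 1.05 and adjusted p = 0.0423 with all calves, 1.22 and 0.00574 without treated replicate 4, edgeR), but in only 2 of the 8 fits without a calf (adjusted p up to 0.134). The fit without control replicate 2 was among those that lost the call.

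**Figure D5:**
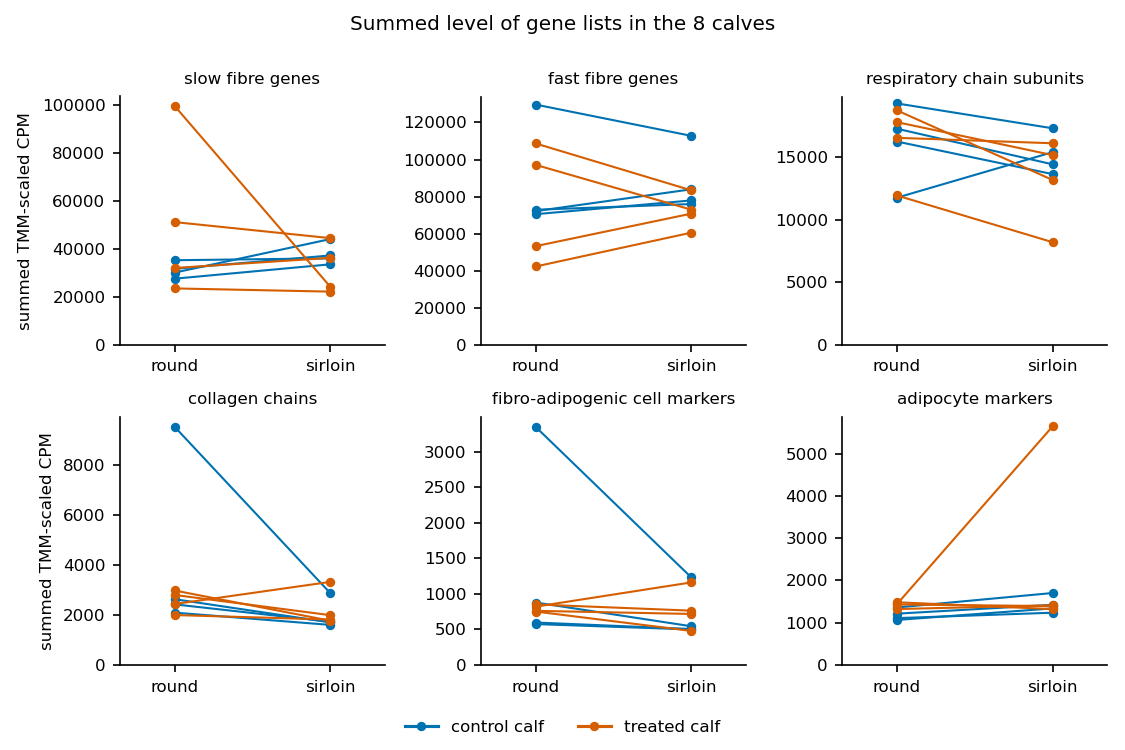
Summed level (TMM-scaled CPM, linear axes from 0) of 6 gene lists in round and sirloin, with a line for each calf coloured by maternal diet. Single libraries stand apart: the round library of treated replicate 2 in slow fibre genes at 99617 CPM, the round library of control replicate 2 in collagen chains at 9519 CPM and the sirloin library of treated replicate 4 in adipocyte genes at 5646 CPM.

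Of 13 smooth muscle and pericyte markers, 2 were higher in round: TAGLN had medians of 52.3 and 32.0 CPM (log2 fold change 0.70, SE 0.115, adjusted p = 0.0182, edgeR) and ACTA2 42.5 and 27.7 CPM (0.69, SE 0.134, adjusted p = 0.0423), both higher in round in all 8 calves. TAGLN was kept by 3 and ACTA2 by 2 of the 8 fits without a calf. MYH11, the smooth muscle myosin, did not pass (log2 fold change 0.34, adjusted p = 0.582, edgeR), and the sum of the 13 markers was higher in round in 7 of 8 calves, with medians of 324 and 270 CPM. At an unadjusted p under 0.05 in edgeR's test, 4 of the markers were higher in round and 0 in sirloin, and DESeq2 called 4, all higher in round. Among 17 tendon and cartilage markers KERA, a cornea and tendon proteoglycan, was called (medians 4.19 and 1.56 CPM, log2 fold change 1.32, SE 0.265, adjusted p = 0.0494, edgeR). It reached 50.3 CPM in the collagen-high round library of control replicate 2, and without that calf the call was lost, as it was in 4 further fits (adjusted p up to 0.145). SCX and TNMD, which define tendon, did not pass (log2 fold changes 0.26 and 0.61, adjusted p = 0.824 and 0.874, edgeR). Of the tendon and cartilage markers, 3 were higher in round and 0 in sirloin at an unadjusted p under 0.05, and DESeq2 called 1, higher in round. The 16 detected fibro-adipogenic markers gave no call with all calves (2 higher in round at an unadjusted p under 0.05, 2 calls by DESeq2) and a median of 0.04. Without treated replicate 4, 2 passed as higher in round and the median was 0.19.

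Markers of other cell types gave no call. The 13 endothelial, 11 Schwann cell, 17 immune and 6 detected epithelial markers had no call by edgeR or DESeq2, with 1, 0, 0 and 0 genes at an unadjusted p under 0.05 and medians of 0.17, 0.05, 0.16 and 0.21 on the log2 scale. Of 8 detected red blood cell markers none passed (1 at an unadjusted p under 0.05), and their sum was at most 13.7 CPM in any library. The study's methods name a kit that depletes globin RNA and the labels poly(A) selection, so these sums do not measure the blood in a piece. The 16 proliferation genes had a median of 0.43, 4 of them higher in round at an unadjusted p under 0.05 and 1 called by DESeq2, among which TOP2A had medians of 1.19 and 0.440 CPM (log2 fold change 1.06, adjusted p = 0.0713, edgeR). None of 22 adipocyte genes passed with all calves (1 higher in round and 5 higher in sirloin at an unadjusted p under 0.05, 2 calls by DESeq2). The median of the list was -0.31 with all calves and 0.28 without treated replicate 4, so its sign turned on that calf. Without it, LIPE, the hormone-sensitive lipase, was lower in round (log2 fold change -0.92, adjusted p = 0.0142) and FABP4 higher (1.26, adjusted p = 0.0245, edgeR). The calls higher in sirloin with all calves included 5 genes, BPIFA2A, ADIG, TGM5, KRT79 and LOC112441508, that had 99.8% or more of their level over the 16 libraries in that single sirloin library. ADIG is an adipocyte gene, and without treated replicate 4 it and TGM5 had adjusted p-values of 0.782 and 0.780, while the other 3 had no counts left.

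The difference between the muscles was also compared between the diets, since the study asked how maternal feeding acts on each muscle. Of 22877 genes, 1 (0.00437%) had an interaction of muscle with diet past an adjusted p of 0.05 in edgeR's test, 865 had an unadjusted p under 0.05, and DESeq2 called 5. The gene was AMBP, a plasma protein precursor of the liver (interaction 8.87 on the log2 scale, adjusted p = 0.0223, edgeR). Its level was low throughout, with 3.83 CPM in the round library of treated replicate 3, 1.21 CPM in the sirloin library of control replicate 2 and at most 0.647 CPM elsewhere. The next genes, TRARG1, CYP21A2, SCUBE3 and CIDEC, did not pass, and TRARG1, SCUBE3 and CIDEC were at 166, 27.3 and 68.5 CPM in the adipocyte-high sirloin library of treated replicate 4 and at most 0.363 CPM in any other. Of the 122 genes that differed between the muscles, 7 had an interaction at an unadjusted p under 0.05. HOXC11, TBX4, IGFN1 and LBX1 had log2 fold changes of 9.65, 9.11, -4.02 and 1.55 in control calves and of 9.93, 8.59, -4.74 and 2.37 in treated calves, and an interaction was not detected for any of them (smallest unadjusted p = 0.110, edgeR).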

How the data were processed

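RNA of round and sirloin muscle from 8 newborn calves was sequenced, and the deposited read counts and TPM of the 16 libraries were joined by gene ID. Raw counts per gene and TPM were made by the authors; the study's methods name HISAT2, Bowtie2 and StringTie, while the submitters' processing notes name STAR, featureCounts and build ARS-UCD1.2, and strand use in the counting is not given in the sources used here. The authors' own comparison tables (fold changes and p-values between diets) were not used. Of 34109 gene IDs, 30762 (90.2%) were named from RefSeq's table for ARS-UCD2.0, without its coordinates.

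The 22877 genes with at least 1 count in a library were fitted with edgeR 4.0.16 (TMM factors, quasi-likelihood test, calf as block, Benjamini-Hochberg adjustment over all genes). Standard errors are the size of the log2 fold change divided by the root of the F statistic. edgeR's p-values weigh the mean within-calf difference against the spread of that difference over these 8 calves. The spread used for a gene was drawn toward the trend over all genes, so it is not that gene's own spread alone. Same-numbered libraries pair the samples: deviations from the group means correlated at 0.250 to 0.595 within calves and at no more than 0.281 across calves. Alternatives used DESeq2 1.42.0, limma 3.58.1 with voom and on log2(TPM + 1), other scalings and filters, and each calf left out. On simulated counts with the real means, edgeR recovered 91.0% of 200 genes changed by 1 on the log2 scale. Those genes had a mean above 1 CPM, their variability followed the trend with level, and no library was made to stand apart. The share therefore does not measure how many real differences were found, least of all among genes of lower level. Named genes were the 15 of largest fold change in each direction that were called, lay on 1 side in all 8 calves and had at least 1 CPM in the higher muscle, up to 4 called members of each list and direction, the defining members of each list, and the 5 genes of smallest interaction p. For the genes of largest fold change, the agreement of all 8 calves was thus set by the rule. The gene lists and the named genes were chosen with earlier results of these data known. PAX7 and MYLPF were not matched by symbol. Floors of 3 counts over a group cover counting error only. Where no tool is named beside an adjusted p, it is that of edgeR. The results of some genes are not reported here.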

Additional observations from a re-analysis of the deposited data

Results flagged for a closer look

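In 16 of 101 groups of 8 values, the gap between the extreme value and its nearest neighbour exceeded Dixon's 95% critical value as a share of the whole range. By its construction the criterion passes about 1 in 20 groups by chance, and the groups share libraries. The sirloin library of treated replicate 4 had a summed level of 5646 CPM for adipocyte genes (others 1236 to 1702), 3786 CPM for matrix proteins (others 2410 to 2888) and 3091 CPM for immediate early genes (others 686 to 1733). The round library of control replicate 2 had 9519 CPM for collagen chains, 3346 CPM for fibro-adipogenic markers (others 574 to 877) and 370 CPM for tendon and cartilage markers (others 73.5 to 134). Treated replicate 2 had 99617 CPM for slow fibre genes in round, and in sirloin 8204 CPM for respiratory chain subunits (others 13186 to 17323) and 107 CPM for immune markers (others 14.4 to 50.8). The sirloin library of control replicate 1 lay above the other sirloin libraries, with 112787 CPM for fast fibre genes (others 60508 to 83922), 151439 CPM for sarcomere and Z-disc genes, 27469 CPM for oxidative regulators and oxygen or energy carriers and 182294 CPM for skeletal muscle defining genes.

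Within-calf differences (round minus sirloin, log2 CPM) of 3 called genes had an extreme calf. IGFN1 was at -9.74 in treated replicate 2 and between -5.16 and -2.95 in the other calves, SLC6A9 at 3.53 in control replicate 2 (others 0.684 to 1.93) and LOC614741 at -4.92 in treated replicate 4 (others -3.23 to -1.74). The direction was that of the other calves in all 3.

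The muscle difference of AMBP differed between the diets by 8.87 on the log2 scale in edgeR's interaction test, on the low levels given above, and AMBP passed in 2 of the 8 fits without a calf.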

How the results depend on the processing

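The count of 122 genes that differed between the muscles moved to 822 with DESeq2, 57 with limma on log2(TPM + 1), 28 at an adjusted p of 0.01 and 76 at a log2 fold change of at least 1. It was 14 with no replicate block (the calf pairing) and 4 in the treated calves alone. Leaving out each calf in turn gave 44 (without treated replicate 1) to 368 (without treated replicate 4). It was 87 to 142 with limma-voom, RLE or upper-quartile factors, the filterByExpr filter or control calves alone. The separation of the muscles stayed between 0.178 and 0.256, with an exact p of 0.0312 or less, under the alternatives that kept both diets. The 4 calves of a single diet allow too few label swaps for the exact test to reach that p. The single interaction of muscle with diet became 5 with DESeq2 (3 alternatives kept 1), 0 without the pairing (637 genes at an unadjusted p under 0.05) and 0 to 2 without each calf. Of the 122 called genes, 32 passed without every calf in turn. Over 17 alternatives, 41 called named genes gave 697 fits, of which 502 kept the call, 195 lost it and 0 changed direction. Named genes that were not called changed sign in 92 of 1115 fits. The causes were not tested.

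Depth limited the low genes: TBX4, HOXC11 and ZIC5 rested on totals of 482, 856 and 638 counts in the muscle that had them.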
